A study of Arabidopsis thaliana with 8 samples.

Results

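The aldehyde dehydrogenase (ALDH) genes of Arabidopsis thaliana were taken as all probe sets whose annotation gives a single gene with a symbol of ALDH followed by a number, and whose mean log2 signal over the 8 arrays lay above the 40th percentile of the non-control probe sets, a signal of 21.1. The symbol matched 8 probe sets, each for a different gene, of 22746 non-control probe sets. Of these 8 genes, 7 lay above the filter and were tested among 13647 probe sets (7468 genes with a symbol), and ALDH11A3 lay below it. The superfamily list used here holds 16 loci, so 8 of them, P5CS1 and P5CS2 among them, were not analysed here.

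Both groups were cultured cells of Ler (Landsberg erecta, stock code NW20), held at 24 °C on Murashige and Skoog salts, with kinetin (a cytokinin), NAA (an auxin analogue) and sucrose added to every culture. Their total RNA was hybridised to 8 arrays, 4 titled fum and 4 titled met, each numbered 1 to 4. The labels spell out neither word and name no control. By its title the series concerns genes that regulate programmed cell death in plants. Whether the arrays of 1 group share a culture is not stated, so the spread behind each p-value may be technical.

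ALDH enzymes oxidise aldehydes to carboxylic acids with NAD or NADP. Plants form aldehydes when amino acids and polyamines are broken down, when phenylpropanoids are made, and when membrane lipids are peroxidised under stress. Family members work in different compartments on different substrates, and several are known as stress-responsive genes.

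Some arrays stood apart in their control signals. The control for 25S ribosomal RNA was low on 3 arrays, at 157.6 (fum replicate 3), 824 (met replicate 1) and 1305 (met replicate 2), and lay between 2806.2 and 4491.2 on the other 5. For actin, the control at the 3′ end was 12.01 times as bright as that at the 5′ end on met replicate 1, against 1.92 to 2.39 times on the other 7 arrays. A second pair of actin controls read 15.8 times on met replicate 1, against 5.69 to 10.8 times on the other 7, the highest of them fum replicate 3. Of 16 marker loci for leaf, root, seed and tracheary cells, 2 had a probe set of their own. The leaf marker RCA read 382.7 to 464.4 on fum arrays and 470.5 to 588.3 on met arrays. The groups did not overlap, with fum lower, as for 6.37% of all tested probe sets (log2 -0.29, limma adjusted p = 0.155). The log2 difference of RCA was -0.15 within the 5 arrays with high 25S signal and -0.28 with low or high 25S signal as a block. The root hair marker EXPA7 lay below the filter with 9.6 to 25 on fum and 7.8 to 19.3 on met arrays. The part of these signals in the ALDH results was not tested.

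None of the 7 tested ALDH genes passed the test between fum and met cultures (limma adjusted p from 0.331 to 0.968, threshold 0.05), where 2.57% of all tested probe sets passed. A count of 0 was also found at an unadjusted limma p below 0.05, which 17.9% of all tested probe sets reached. The mean log2 signal was lower in fum for 6 of the 7 genes, where 50.4% of all tested probe sets had a lower mean in fum. After quantile normalization or median centring, which moved that share to 53% and 55.4%, the near-zero value of ALDH2C4 was also below 0. Over the 7 genes the median log2 difference, fum minus met, was -0.13, beside -0.0021 over all tested probe sets. Only ALDH6B2 had groups that did not overlap, which was true of 12.4% of all tested probe sets, 6.37% lower and 6.04% higher in fum. In RNA from whole cultures, fewer cells of a type and less RNA per cell cannot be told apart. The differences ran from -0.44 for ALDH3F1 to 0.025 for ALDH2C4.

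**Figure D1:**
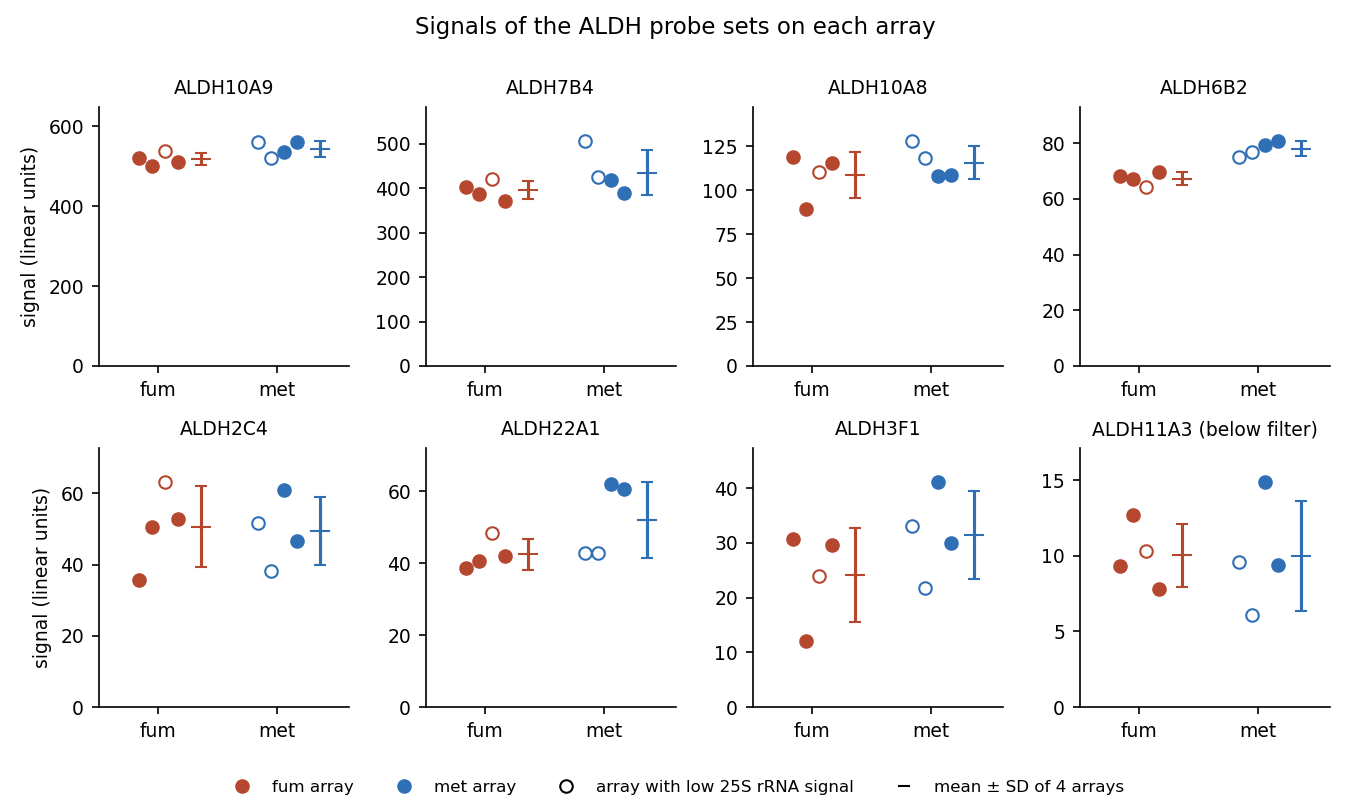
Deposited signal (linear units, axis from 0) of the 8 ALDH probe sets on each array, with the 4 fum arrays on the left and the 4 met arrays on the right of each panel, and the mean and SD of each group beside its points. Open points are the 3 arrays with low 25S ribosomal RNA signal; ALDH6B2 is the panel in which the groups are apart.

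ALDH6B2 (AT2G14170, probe set 263275_at) encodes methylmalonate semialdehyde dehydrogenase, a mitochondrial enzyme of valine breakdown. Its signal was 68.3, 67.1, 64.2 and 69.6 on fum arrays 1 to 4, against 75.2, 76.7, 79.5 and 81.0 on met arrays 1 to 4. All fum arrays lay below all met arrays, and both groups were narrow. The means were 67.3 ± 2.31 in fum and 78.1 ± 2.63 in met (SD, n = 4 each), a 0.862-fold level in fum with a 95% interval of 0.731 to 1.02. The log2 difference was -0.21 (SE 0.11, limma adjusted p = 0.331). The SD within groups was 0.049 on the log2 scale, and 0.359% of tested probe sets had a smaller one. The limma test draws such a narrow spread towards that of probe sets of similar signal, so its SE is wider than the spread of these 8 values alone gives. The difference was nearly the same with any array left out (log2 -0.23 to -0.19).

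The pair ALDH10A9 and ALDH10A8 encode homologues of betaine aldehyde dehydrogenase that oxidise aminoaldehydes, such as those from polyamine breakdown. ALDH10A9 (AT3G48170, 252354_at) had signals of 521.3, 501.6, 537.5 and 511.5 on fum arrays 1 to 4, against 560.7, 520.2, 534.9 and 561.6 on met arrays 1 to 4. The groups overlapped and no array stood apart. Means were 518 ± 15.3 in fum and 544 ± 20.3 in met (SD, n = 4 each), and the log2 difference was -0.071 (SE 0.078, limma adjusted p = 0.687). Its interval was the narrowest of the 7 genes, from 0.845-fold to 1.07-fold in fum relative to met. Within groups its SD was 0.049 on the log2 scale, smaller than that of all but 0.337% of tested probe sets.

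ALDH10A8 (AT1G74920, 262173_at) had signals of 119.0, 89.5, 110.6 and 115.7 on fum arrays 1 to 4, against 128.3, 118.2, 107.9 and 108.7 on met arrays 1 to 4. Fum replicate 2 was the lowest of the 8 and met replicate 1 the highest, and the other arrays of both groups were mixed. The log2 difference was -0.096 (SE 0.12, limma adjusted p = 0.741), with an interval of 0.776-fold to 1.13-fold. Without fum replicate 2 it was -0.0055.

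ALDH7B4 (AT1G54100, 263157_at) is the plant relative of antiquitin, which in humans oxidises aminoadipic semialdehyde in lysine breakdown, and is known in Arabidopsis as a gene induced by dehydration and salt. Its signal was 402.7, 388.0, 421.4 and 372.0 on fum arrays 1 to 4, against 507.6, 425.2, 418.6 and 389.1 on met arrays 1 to 4. Met replicate 1, the array with the high actin ratio, read well above the other 7, which overlapped. The means were 396 ± 21.1 in fum and 435 ± 50.8 in met (SD, n = 4 each). The log2 difference was -0.13 (SE 0.10, limma adjusted p = 0.543, interval 0.784-fold to 1.06-fold). Without met replicate 1 it was -0.054 (adjusted p = 0.780).

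ALDH2C4 (AT3G24503, 258140_at), also named REF1, oxidises coniferaldehyde and sinapaldehyde to ferulic and sinapic acid. Its signal was 35.7, 50.5, 63.3 and 52.9 on fum arrays 1 to 4, against 51.8, 38.2, 61.0 and 46.7 on met arrays 1 to 4. Both groups covered nearly the same range. With a log2 difference of 0.025 (SE 0.20, limma adjusted p = 0.968) the interval ran from 0.745-fold to 1.39-fold. The sign of a value so near 0 turned with quantile normalization (-0.024) and with centring of each array on its median (-0.0055).

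ALDH22A1 (AT3G66658, 256246_at) encodes a family member whose substrate is not settled. Its signal was 38.6, 40.7, 48.5 and 42.0 on fum arrays 1 to 4, against 42.9, 42.8, 62.0 and 60.5 on met arrays 1 to 4. Met arrays 3 and 4 read above all others, while met arrays 1 and 2 lay among the fum arrays. Means were 42.5 ± 4.27 in fum and 52.1 ± 10.6 in met (SD, n = 4 each), with a log2 difference of -0.28 (SE 0.17, limma adjusted p = 0.448, interval 0.633-fold to 1.08-fold). Met arrays 1 and 2 are those with low 25S signal. Within the 5 arrays with high 25S signal, 3 fum and 2 met, the log2 difference was -0.60 (limma adjusted p = 0.111). Within the other 3 arrays, 1 fum and 2 met, it was 0.18, with no test. In a fit on all 8 arrays with low or high 25S signal as a block, the log2 difference was -0.32 (limma adjusted p = 0.307). The division and the block were chosen after seeing the data, and the part of the 25S signal in the result was itself not tested.

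ALDH3F1 (AT4G36250, 253083_at) belongs to the branch of the superfamily that is known for oxidising fatty aldehydes. Its signal was 30.8, 12, 23.9 and 29.6 on fum arrays 1 to 4, against 33.0, 21.7, 41.2 and 29.9 on met arrays 1 to 4. Fum replicate 2 read below the filter signal of 21.1, and the remaining arrays overlapped. This was the widest spread of the 7 genes, with an SD within groups of 0.52 on the log2 scale, and 94.2% of tested probe sets had a smaller one. The log2 difference of -0.44 (SE 0.32, limma adjusted p = 0.523) had an interval of 0.451-fold to 1.21-fold. Without fum replicate 2 it was -0.13 (adjusted p = 0.808).

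ALDH11A3 (AT2G24270, 265998_at) encodes the non-phosphorylating glyceraldehyde-3-phosphate dehydrogenase of the cytosol. Its signal was 9.3, 12.7, 10.3 and 7.8 on fum arrays 1 to 4, against 9.6, 6.1, 14.9 and 9.4 on met arrays 1 to 4. All 8 values lay below the filter signal, with the groups mixed, so the gene was not tested. Just inside the filter, with no gene of the family between, stood ALDH3F1 with a geometric mean over the 8 arrays of 26.3, and just outside it ALDH11A3 with 9.69.

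**Figure D2:**
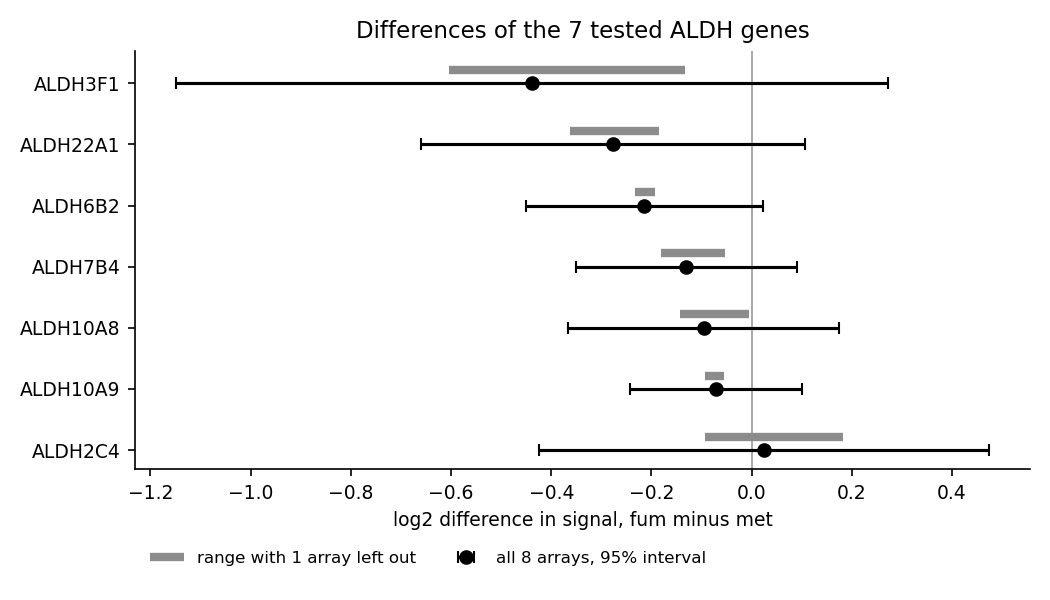
Log2 difference in signal, fum minus met, of the 7 tested ALDH genes (points) with its 95% limma interval (black lines), and the range of the difference when each of the 8 arrays was left out in turn (grey bars). Every interval crosses 0; the grey bar of ALDH2C4 is the one that crosses 0.

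The 7 genes thus differed mainly in how firmly a difference is bounded. For ALDH10A9, ALDH7B4, ALDH10A8 and ALDH6B2 the intervals together spanned 0.731-fold to 1.13-fold in fum relative to met. For ALDH2C4 and ALDH22A1 the interval reached 1.39-fold and 0.633-fold at its far end, and for ALDH3F1 0.451-fold. In size of difference, regardless of sign, ALDH3F1 exceeded 89.1% of tested probe sets, ALDH22A1 72.0%, ALDH6B2 60.6% and ALDH2C4 8.02%. Within the 5 arrays with high 25S signal none of the 7 passed with limma, where 575 of the 13647 tested probe sets did. The log2 difference there was -0.10 for ALDH10A9, -0.059 for ALDH7B4, -0.015 for ALDH10A8, -0.23 for ALDH6B2, -0.22 for ALDH2C4 and -0.66 for ALDH3F1, beside the -0.60 of ALDH22A1. Within the other 3 arrays, 1 fum and 2 met, no test was made. The log2 difference in these was -0.0069 for ALDH10A9, -0.14 for ALDH7B4, -0.16 for ALDH10A8 and -0.24 for ALDH6B2. For ALDH2C4 it was 0.51, for ALDH22A1 0.18 and for ALDH3F1 -0.16. The arrays were divided in this way after seeing the data.

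**Figure D3:**
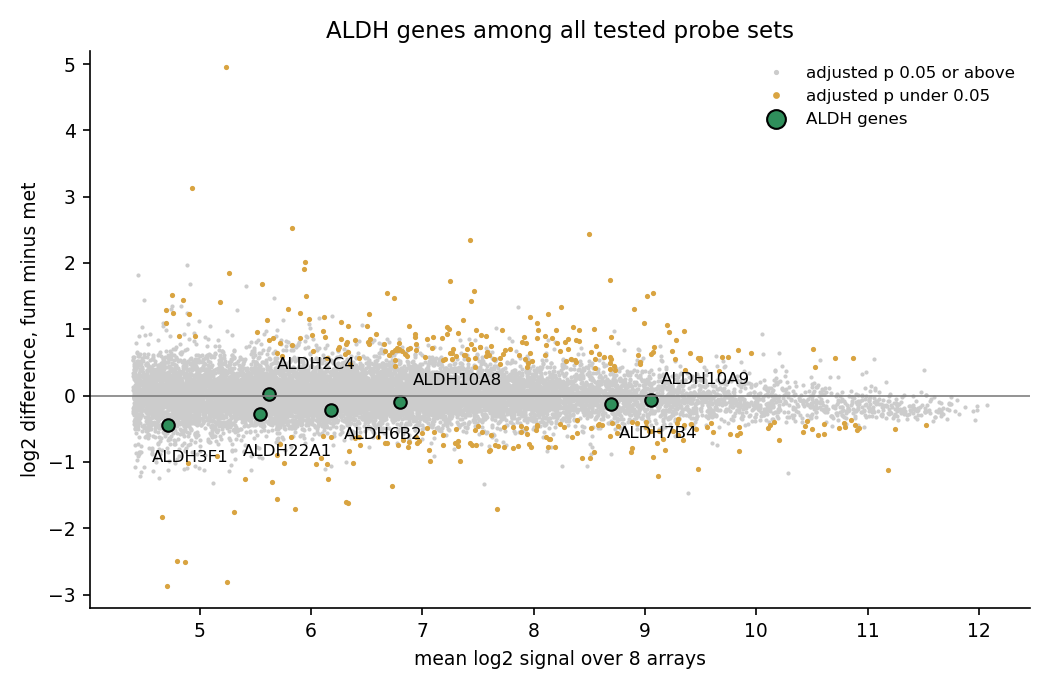
Log2 difference in signal, fum minus met, against the mean log2 signal over the 8 arrays for the 13647 tested probe sets, with the 351 that passed an adjusted p of 0.05 in ochre and the 7 ALDH genes in green. The ALDH genes lie inside the grey band, and the band is wider at low signal.

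For each tested ALDH gene, the genes with the most similar pattern were found by Pearson correlation of log2 signal over the 8 arrays, among 7467 other genes. These values are the highest of that many, so they are given as a description. ALDH6B2 was most like AT3G51270 (0.990) and AT5G11240 (0.972), which had log2 differences of -0.35 and -0.25 between fum and met (limma adjusted p = 0.0887 and 0.163). ALDH7B4 was most like AT1G70780 (0.983) and AT4G33100 (0.979). For ALDH10A9 the genes were AT5G20220 (0.963) and TRZ4, a transfer RNA processing enzyme (0.922), and for ALDH10A8 they were AT5G16730 (0.969) and the glutaredoxin gene GRXC1 (0.956). ALDH22A1 was nearest to AT3G20700 (0.963) and AT3G55080 (0.945), ALDH3F1 to AT5G61240 (0.981) and AT5G08400 (0.960), and ALDH2C4 to AT3G05280 (0.898) and AT3G12350 (0.882). None of these 14 genes passed the test between fum and met, where 2.57% of all tested probe sets did. They were picked for their likeness to genes that did not pass, so this is no separate result. No ALDH gene was among the 14, picked from 7467 other genes.

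The pathways that make or share the substrates of ALDH enzymes were read from 10 lists with 70 loci, of which 21 had a probe set of their own and 18 were tested. Among the 18, limma called 1 gene higher in fum and 0 lower, where 1.47% of all tested probe sets rose and 1.11% fell. Without adjustment, a limma p below 0.05 was reached by 2 genes with higher and 1 with lower means in fum, where 8.87% and 8.98% of all tested probe sets did so. The median log2 difference was -0.054. The lists of the GABA shunt and of aldehyde oxidases had no member tested here.

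The gene that rose was AT5G38710 of the proline metabolism list, to which neither the probe annotation nor the RefSeq table gives a gene name. Its signal was 57.1, 65.8, 71.5 and 70.4 on fum arrays 1 to 4, against 42.8, 44.9, 27.1 and 35.6 on met arrays 1 to 4. All fum arrays lay above all met arrays, as for 6.04% of all tested probe sets. The level was 1.79-fold in fum relative to met (log2 0.84, SE 0.18, limma adjusted p = 0.0370). Leaving out any single fum array, or met replicate 3 or 4, ended the call (log2 0.69 to 0.93 and adjusted p 0.0318 to 0.126 across the 8 omissions). It also ended with quantile normalization, centring on the median, no filter, no intensity trend, and the replicate number as a block. Of 18 alternatives in which the gene was tested, 7 kept the call. Among them, array weights gave log2 0.94 (limma adjusted p = 0.00498) and the 25S block gave 0.93 (adjusted p = 0.00869). The 5 arrays with high 25S signal gave 1.05 (adjusted p = 0.0258). The block and the division by 25S signal were chosen after seeing the data. The call also held with a robust fit and with 16 added to each signal. The other tested gene of this list, DELTA-OAT, encodes ornithine aminotransferase, which makes the semialdehyde that is in equilibrium with pyrroline-5-carboxylate. It read 116.0 to 130.0 on fum and 121.6 to 160.5 on met arrays (log2 -0.19, limma adjusted p = 0.412).

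In the branched-chain amino acid list, whose valine branch holds ALDH6B2, 0 of 4 tested genes passed, beside 2.57% of all tested probe sets. An unadjusted limma p below 0.05 was reached by 0 of the 4, beside 17.9% of all tested probe sets. MCCB, a subunit of methylcrotonyl-CoA carboxylase in leucine breakdown, had 74.6, 71.3, 81.0 and 81.5 on fum arrays 1 to 4, against 108.9, 87.3, 82.2 and 88.0 on met arrays 1 to 4. The groups did not overlap, with fum lower, as for 6.37% of all tested probe sets. Fum replicate 4 lay just below met replicate 3, and met replicate 1 was the highest (log2 -0.24, limma adjusted p = 0.340). IVD, the isovaleryl-CoA dehydrogenase gene, stood at a log2 value, fum minus met, of -0.21, AT2G26800 -0.022 and AT4G20930 0.039. MCCA and AT5G09300 lay below the filter and were not tested.

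AT4G33150 (LKR/SDH) encodes the bifunctional enzyme that begins lysine breakdown. Its signal was 96.6, 123.1, 90.4 and 86.6 on fum arrays 1 to 4, against 56.9, 52.9, 82.3 and 99.3 on met arrays 1 to 4. The low met values were those of arrays 1 and 2, and the groups overlapped (log2 0.48, SE 0.20, limma adjusted p = 0.249). Within the 5 arrays with high 25S signal the log2 difference was 0.16 (adjusted p = 0.685), and with array weights it was 0.20 (adjusted p = 0.516). Beside the ALDH10 genes, the copper amine oxidase gene CuAO1 stood at a log2 value, fum minus met, of 0.12 and AT2G42490 of the polyamine oxidation list 0.11 (limma adjusted p = 0.708 and 0.801). Beside ALDH2C4, CCR2, a cinnamoyl-CoA reductase gene of the sinapate and ferulate list, had 0.21 (adjusted p = 0.354).

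Of the 5 tested genes of the other reactive carbonyl enzymes 0 passed, beside 2.57% of all tested probe sets. All 5 had lower means in fum, as did 50.4% of all tested probe sets. AER, an alkenal reductase that acts on reactive lipid aldehydes, had 1589.0, 1406.4, 1449.0 and 1417.1 on fum arrays 1 to 4, against 2540.7, 1688.8, 1572.6 and 1619.2 on met arrays 1 to 4. Met replicate 1 stood far above the rest, and fum replicate 1 lay within the met range (log2 -0.31, SE 0.14, limma adjusted p = 0.270). Without met replicate 1 the difference was -0.15 (adjusted p = 0.296). AT1G08110 had -0.26 (adjusted p = 0.314) and the glyoxalase gene GLY2 -0.13 (adjusted p = 0.521). AOR had -0.061 and AT3G04000 -0.048, and both turned positive without met replicate 1 (0.068 and 0.019).

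Of the fermentation and acetate genes, the pyruvate decarboxylase gene PDC2 stood at a log2 value, fum minus met, of -0.14 (limma adjusted p = 0.524) and the acetyl-CoA synthetase gene ACS 0.092 (adjusted p = 0.715). GAPC2, which encodes the phosphorylating glyceraldehyde-3-phosphate dehydrogenase of glycolysis, had -0.087 (adjusted p = 0.745) and turned to 0.065 with quantile normalization.

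**Figure D4:**
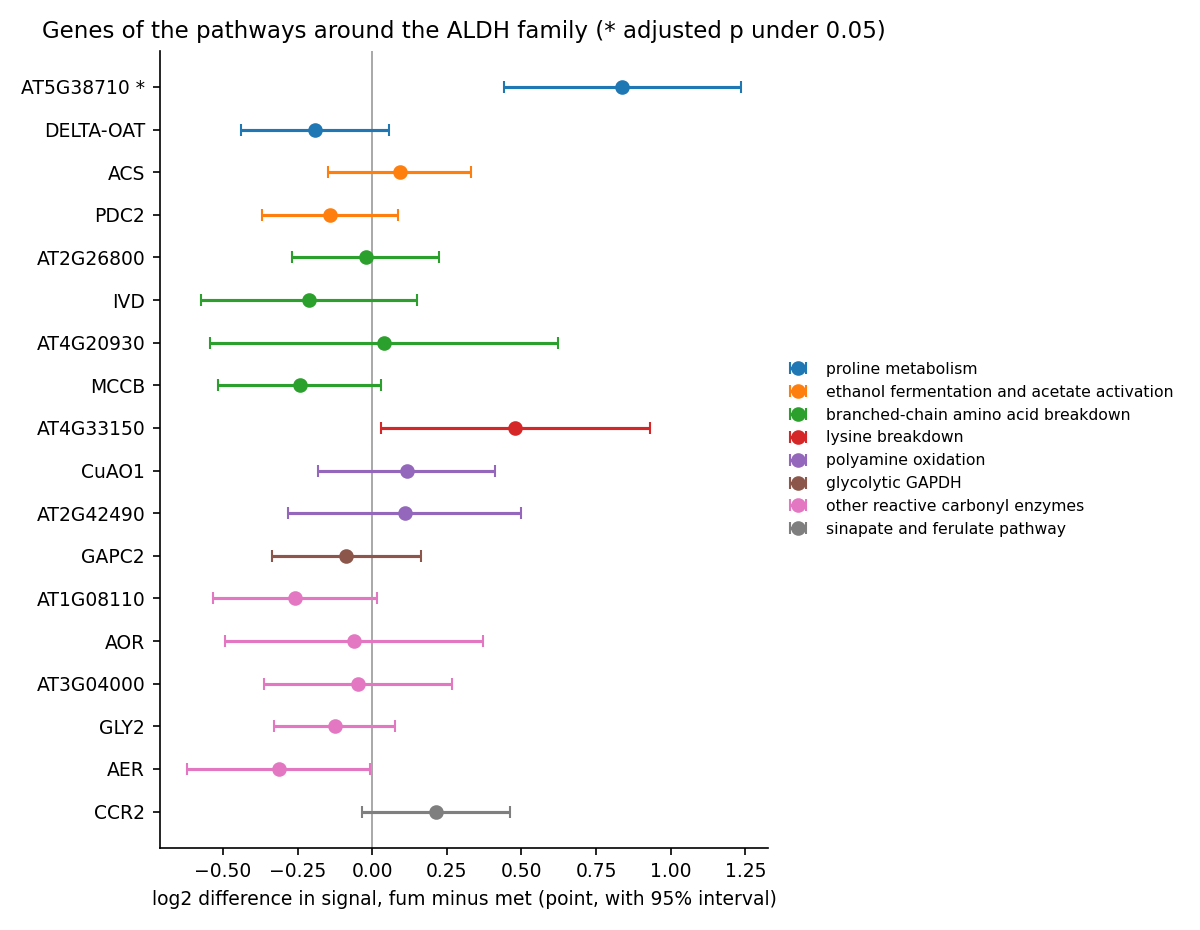
Log2 difference in signal, fum minus met, with its 95% limma interval, for the 18 tested genes of the pathway lists, coloured by list. Only AT5G38710, marked with an asterisk, passed an adjusted p of 0.05.

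**Figure D5:**
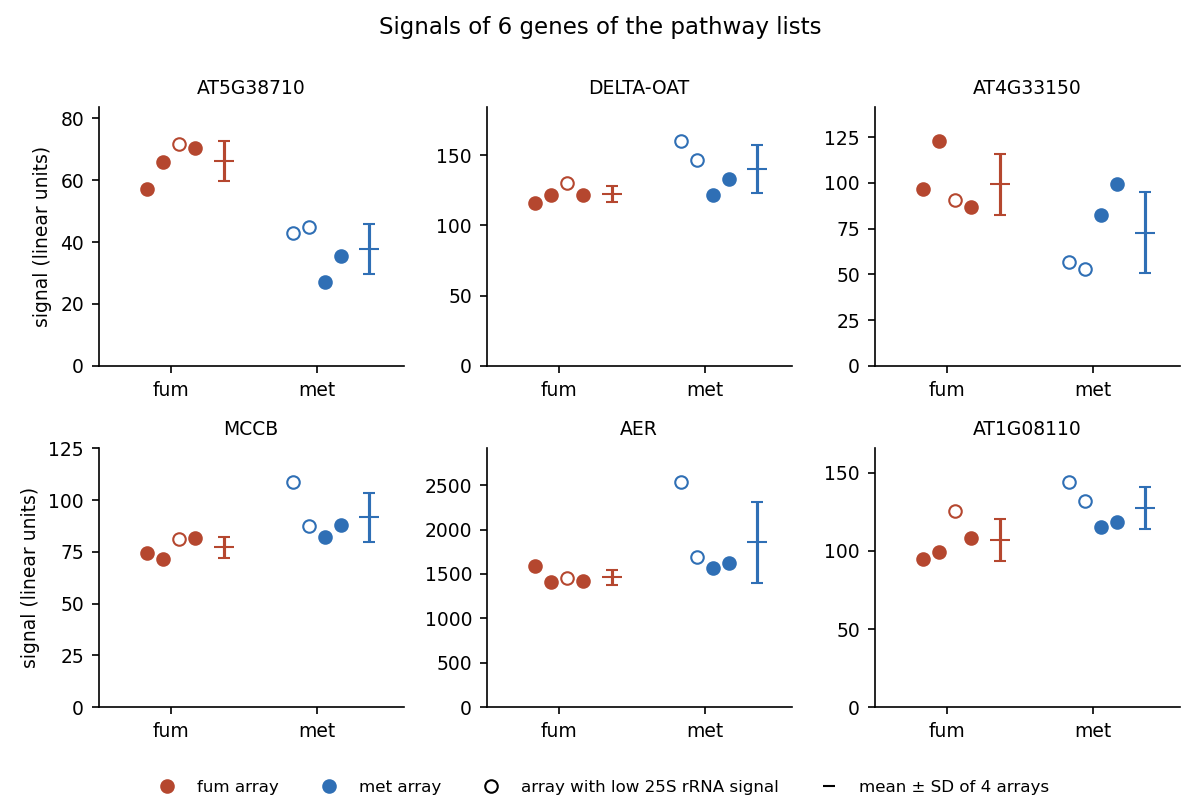
Deposited signal (linear units, axis from 0) of 6 pathway genes, chosen after their values were seen, on each array, fum on the left and met on the right of each panel, with the mean and SD of each group and open points for the 3 arrays with low 25S signal. The groups are apart for AT5G38710 and narrowly for MCCB, and met replicate 1 is the high open point of AER.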

How the data were processed

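The deposited table holds linear signal intensities of 22810 probe sets on 8 arrays. MAS5 is the tool given, without its version, per the submitters' processing notes. The mean of each array between its 2nd and 98th percentile was 99.5 to 99.8, so each array appears scaled to one target. The background setting and genome build are not given in the sources used here. Median signals lay between 33.1 and 41.5. Precision is limited by how few arrays there are.

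The annotation table pairs 13513 probe sets with 1 gene, 503 with several and 8794 with none. Current symbols came from RefSeq's TAIR10.1 gene table by gene identifier (13436 matched, among them all 8 ALDH genes).

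Values of 0 (93 in all) were set to 0.1 before log2, and no other normalization was made. Control probe sets (64) were left out. The fit was made in R 4.3.3 by limma 3.58.1, with lmFit and trended eBayes on group alone. Its two-sided p-values were adjusted by Benjamini-Hochberg across the 13647 probe sets. The procedure was tested on simulated data with independent noise on each array. Those data lack the array differences seen in the control signals, so no conclusion on the ALDH genes is drawn from them. Means ± SD are of linear signals, and folds are ratios of geometric means. Lists are described by counts. The naming rule takes all ALDH probe sets, the tested members of each list, and the 2 most similar genes of each ALDH gene. Members and lists were chosen with earlier results of these data known. Deviations from the group means correlated between -0.473 and 0.140 for same-numbered arrays, and between -0.442 and 0.372 for differently numbered ones. These few values cannot show whether equal numbers mark a shared culture or day, which the labels do not state. At most 1.45% of values were identical between 2 arrays. Alternatives were other normalizations, filters, fits and weights, 16 added to each signal, the replicate number as a block, and each array left out.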

Additional observations from a re-analysis of the deposited data

Results flagged for a closer look

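Within a group of 4 arrays, a value was singled out where its gap to the nearest other value took more of the group's range than Dixon's 95% critical value for 4 values allows. Of 58 groups of values checked, 2 met this, and chance gives about 1 in 20. Both came from met replicate 1. The AER signal was 2540.7 there, against 1572.6 to 1688.8 on the other met arrays, and the 3′ to 5′ actin ratio of that array was 12.01. The second pair of actin controls, at 15.8 there and 7.09 to 8.40 on the other met arrays, was not among the groups checked. No ALDH signal was singled out in either group. The part of the actin ratio in the AER value was not tested.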

How the results depend on the processing

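The count of ALDH genes that passed was 0 under all 19 alternatives, and their lowest adjusted p was 0.0858, for ALDH22A1 with array weights. ALDH10A9, ALDH7B4, ALDH6B2, ALDH22A1 and ALDH3F1 kept their sign under every alternative in which they were tested. The filter at the 60th percentile left ALDH2C4, ALDH22A1, ALDH3F1 and AT5G38710 untested. ALDH2C4 reversed with quantile normalization (-0.024), median centring (-0.0055), array weights (-0.056), within the 5 arrays with high 25S signal (-0.22), and without fum replicate 3, fum replicate 4 or met replicate 2 (-0.093, -0.0066 and -0.092; range over all omissions -0.093 to 0.18). ALDH10A8 reversed with array weights (0.022). The count of 351 probe sets became 116 with median centring, 164 without the trend, 1323 with array weights, 115 with the replicate block, 112 to 415 with 1 array left out, 789 with a block for low or high 25S signal and 575 within the 5 high arrays. The last 2 settings were added after seeing the data. The pathway genes that passed, 1 in all, numbered 0 with quantile normalization, median centring, no filter, the 60th percentile filter, no trend or the replicate block, and 0 to 1 with 1 array left out. The cause was not tested. GAPC2 reversed with quantile normalization (0.065), AT4G20930 with array weights (-0.11) and the 25S block (-0.094), AOR with array weights (0.14), the 25S block (0.057) and the high arrays (0.046), and AT2G26800 with the 25S block (0.0064). With 1 array left out AT4G20930 ranged from -0.21 to 0.22, AOR from -0.18 to 0.12, AT2G26800 from -0.10 to 0.044, AT2G42490 from -0.0061 to 0.27 and AT3G04000 from -0.13 to 0.019.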
